A study of Mus musculus with 2 samples.

Results

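The regions described here lie near the genes of the MYC and MAX network, which encode the transcription factors Myc, Mycn and Mycl, their partner Max, the repressors Mxd1, Mxd3, Mxd4, Mxi1 and Mnt, and Mlx. A region was taken when the nearest protein-coding start to its centre, within 100 kb, belonged to 1 of these 10 genes. Of 14994 listed regions, 12 met this rule, and they fell to 9 of the 10 genes. Mycn had none. The assignment of regions to genes used positions and no measured value. The 10 genes themselves were chosen with earlier results of these data known.

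The regions come from STARR-seq, in which genomic fragments are placed in a reporter so that a fragment with enhancer activity raises its own transcription. The reporters were carried on an episome and brought by transient transfection into activated T helper 1 (Th1) primary cells of C57BL/6NJ mice. All cells of the single group had received interleukin-2, interleukin-12 p70 and an antibody to interleukin-4 for 4 days, and antibodies to CD3e (0.25 ug/mL) and CD28 for 3 days. The labels give 10 ng/mL for both interleukins in replicate 1, and 2 ug/mL for the antibody to interleukin-4 and 1 ug/mL for that to CD28 in replicate 2. There were 2 output libraries of biological replicates under 1 donor identifier, each from 30 ug of nucleic acid with a size range of 200 to 400 bp, and the values came from 1 table made from both together. No region therefore has a value for each library, how far replicates differed cannot be given, and depth in reads is unknown. The assay gives no expression level of any gene, so the labelled cell type was not checked against markers. The table gives each region a signed effect whose scale and direction are not stated. A positive effect is read here as output above input and a negative one as output below input.

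Proteins of this network share a basic helix-loop-helix leucine zipper. Myc, Mycn and Mycl bind DNA only when paired with Max, and these pairs recognise the E-box CACGTG and favour transcription. The Mxd proteins, Mxi1 and Mnt also pair with Max or, in some cases, with Mlx, bind the same E-box and recruit Sin3 repressor complexes. In T cells, Myc is induced by antigen receptor and interleukin-2 signals and drives growth and metabolism. Among the repressors, Mxd1 and Mxd4 are known from cells that stop dividing.

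The sequences below show the E-box of the network itself inside regions of its own genes. All are mm10 sequence written 5′ to 3′ along the strand of the gene, and none covers an untranslated region. Capitals mark CACGTG and, where present, CCAAT read on either strand (ATTGG when it lies on the other strand), the letters of the NFY element. The Max stretch holds 2 E-boxes, the others 1 each.

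Max, upstream, chr12:76962242-76962541, minus strand: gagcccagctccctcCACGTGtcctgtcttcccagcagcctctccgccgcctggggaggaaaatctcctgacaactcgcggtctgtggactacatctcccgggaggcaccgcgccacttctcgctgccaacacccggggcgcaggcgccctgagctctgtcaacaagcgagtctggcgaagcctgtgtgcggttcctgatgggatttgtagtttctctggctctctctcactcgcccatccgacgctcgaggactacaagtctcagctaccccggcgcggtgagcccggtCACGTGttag
Mlx, upstream, chr11:101087077-101087276, plus strand: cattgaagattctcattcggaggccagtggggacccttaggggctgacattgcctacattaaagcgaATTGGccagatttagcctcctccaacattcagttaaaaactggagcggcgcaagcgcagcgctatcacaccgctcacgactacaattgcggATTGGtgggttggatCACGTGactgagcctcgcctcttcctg
Mxd4, upstream, chr5:34187721-34187970, minus strand: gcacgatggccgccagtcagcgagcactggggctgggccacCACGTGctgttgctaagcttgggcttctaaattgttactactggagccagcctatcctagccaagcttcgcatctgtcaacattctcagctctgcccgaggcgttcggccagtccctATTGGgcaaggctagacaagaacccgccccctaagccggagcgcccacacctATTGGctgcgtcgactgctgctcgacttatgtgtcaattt
Mnt, upstream, chr11:74830720-74830919, plus strand: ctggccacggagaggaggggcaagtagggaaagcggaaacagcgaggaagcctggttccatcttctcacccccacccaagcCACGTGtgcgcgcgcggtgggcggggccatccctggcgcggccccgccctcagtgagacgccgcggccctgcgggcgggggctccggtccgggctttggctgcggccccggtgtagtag
Mnt, intron, chr11:74832206-74832405, plus strand: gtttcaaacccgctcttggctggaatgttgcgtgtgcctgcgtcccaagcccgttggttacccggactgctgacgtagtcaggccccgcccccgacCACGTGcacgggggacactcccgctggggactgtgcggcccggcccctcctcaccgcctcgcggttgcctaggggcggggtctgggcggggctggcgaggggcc
Mxd3, distal, chr13:55339326-55339575, minus strand: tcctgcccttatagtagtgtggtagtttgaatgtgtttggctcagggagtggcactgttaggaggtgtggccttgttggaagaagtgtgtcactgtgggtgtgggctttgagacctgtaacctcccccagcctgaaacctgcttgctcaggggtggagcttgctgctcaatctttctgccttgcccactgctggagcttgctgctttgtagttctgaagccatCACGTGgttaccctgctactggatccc

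Of the 12 regions, 10 had a positive and 2 a negative effect (83.3% positive). Over all listed regions on chromosomes 1 to 19, X and Y, 80.7% were positive, so the share among the network regions lay near the background. In the authors' deposited table every listed region has an adjusted p under 0.01, and 9 of the 12 were under 0.001, as were 60.6% of all listed regions; the listed regions made up 13.1% of the 114722 that the p-values and adjusted p-values imply were tested. The 10 positive effects ran from 0.63 to 1.45 in the authors' deposited table, with a median of 0.76 against 0.80 over all positive regions. Of the 10, 8 lay below that overall median. The 2 negative effects, -0.74 and -0.72 in the authors' deposited table, were also small beside the overall negative median of -1.07. Only the Mxd3 region reached 1 in size, as did 33.9% of all listed regions.

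**Figure D1:**
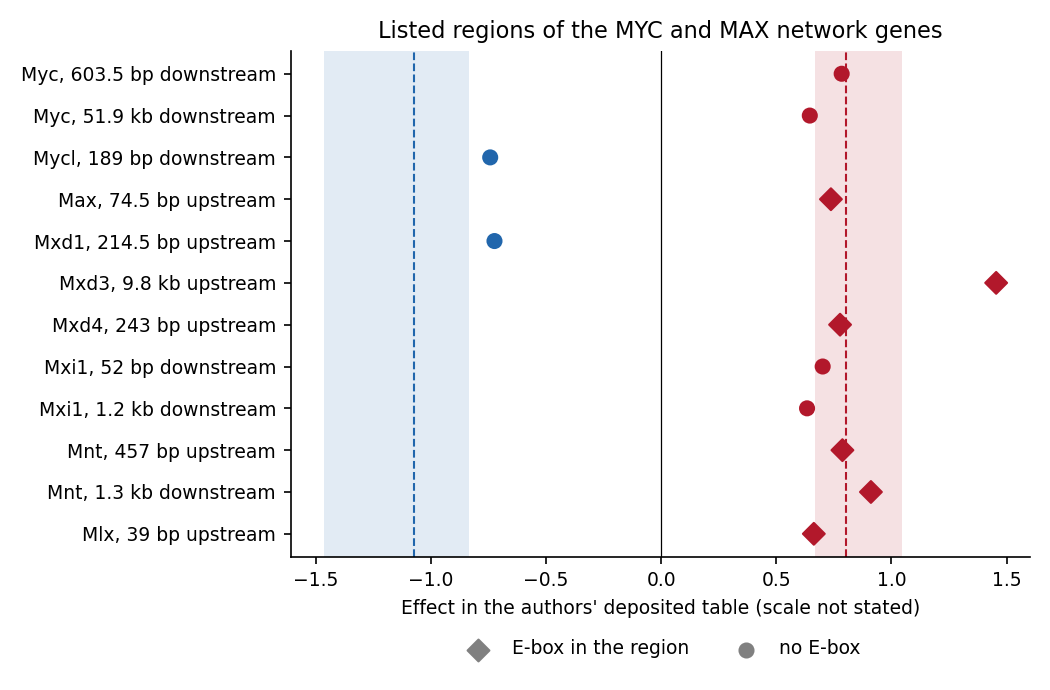
Effect of each of the 12 regions in the authors' deposited table (x axis), with 1 row per region named by its gene and the distance of its centre from the nearest start of that gene. Red is positive and blue negative, diamonds hold a CACGTG E-box, dashed lines are the medians of all listed positive (0.80) and negative (-1.07) regions and shaded bands their quartiles (0.67 to 1.05 and -1.46 to -0.83). The Mxd3 region, at 1.45, lies above the upper quartile, and every diamond is red.

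Because the 10 genes were chosen with earlier results of these data known, the counts of listed regions at them are descriptions. Whether they exceed the shares over all genes was not tested. Of the 10 genes, 9 had at least 1 region, where 43.0% of 21827 annotated protein-coding genes had one. Myc, Mxi1 and Mnt had 2 regions each, and 13.6% of protein-coding genes had 2 or more. For 8 of the 12 regions the centre lay within 1000 bp of a start of its own gene, and these fell to 8 of the 10 genes (all but Mycn and Mxd3), where 30.1% of protein-coding genes had such a region. Counting starts of any annotated gene, 9 of the 12 were promoter regions (56.0% of all listed regions were), and 7 of these 9 were positive, against 75.8% of listed promoter regions. No other protein-coding gene had a start within 1000 bp of any of the 12 centres. At all 12 regions the 300 bp around the centre were single-copy, with no second match of at least 240 bp at 95% identity in the genome. These 300 bp leave out the ends of wider regions and reach beyond narrower ones.

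Among the activators, Myc, the growth regulator induced on T cell activation, had 2 positive regions. The first was 50 bp wide (chr15:61988001-61988050) and had its centre in a coding exon of Myc, 603.5 bp downstream of the last of 5 annotated Myc starts. The authors' deposited table gave it 0.78 (adjusted p = 4.21e-06). The region was 76.0% GC and its whole sequence is shown because no listed region is narrower. No CACGTG or CCAAT is in it, so it has no capitals.
Myc, coding exon, chr15:61988001-61988050, plus strand: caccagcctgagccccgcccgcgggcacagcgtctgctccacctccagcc
Of 213 listed promoter regions, those with a centre within 1000 bp of any annotated start, with 75 to under 80% GC, 92.5% were negative. Among the 47 of these that were under 200 bp wide, 76.6% were negative. Only 2.57% of all listed regions had a width of 50 bp, which is below the stated size range of the fragments, and widths in the table were multiples of 25 bp throughout. The median effect of all 386 regions of 50 bp was 0.59 in the authors' deposited table. A positive sign was thus the commoner one at this width, as it was over all listed regions (80.7% positive). These 386 regions were not matched on GC content, and the part of width in the sign was not tested.

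The second Myc region (chr15:62039101-62039475, 375 bp) had its centre 51866 bp downstream of the nearest Myc start but only 31 bp from an annotated start of Pvt1, the long non-coding RNA gene next to Myc. The authors' deposited table gave it 0.65 (adjusted p = 0.00074). The region was 47.7% GC, and its centre lay in a non-coding exon of Pvt1. Its central 250 bp hold no E-box of the canonical form and are shown because the region lies at the start of a Pvt1 transcript rather than of a Myc one.
Pvt1 start, chr15:62039164-62039413, plus strand: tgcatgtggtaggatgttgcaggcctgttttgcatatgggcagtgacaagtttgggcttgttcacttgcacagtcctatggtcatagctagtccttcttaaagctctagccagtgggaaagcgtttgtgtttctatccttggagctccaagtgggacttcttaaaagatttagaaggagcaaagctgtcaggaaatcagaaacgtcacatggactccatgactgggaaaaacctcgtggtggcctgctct

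The 100 kb limit mattered for Myc and for no other gene of the network. Beyond the member at 51866 bp, the next listed region with Myc as nearest protein-coding start lay at 235603.5 bp, the first of 11 such regions up to 1 Mb, all on the downstream side. Of these 11, 6 were positive and 5 negative. In the authors' deposited table the top value among them was 2.15 (adjusted p = 4.17e-08), at chr15:62305776-62306075 in an intron of Pvt1. That region was 100% soft-masked as repeats and matched 17544 other places in the genome at 80% identity or more over at least 50% of its width, although at 95% identity it was single-copy. How reads were assigned among near copies is stated in no header or label, and its part in this value was not tested. The lowest effects, -1.26 and -1.18 in the authors' deposited table, were also in introns of Pvt1. All 5 negative regions had under 45% GC, as had 7 of the 11. Of all listed distal regions, 33.9% of those with 40 to under 45% GC were negative, and 53.8% of those with 35 to under 40%. The region at -1.26 had 34.7% GC, below both ranges. None of the 11 held CACGTG, and 9 held TGANTCA, the AP-1 consensus of Fos and Jun factors, which 33.5% of all listed distal regions held.

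**Figure D2:**
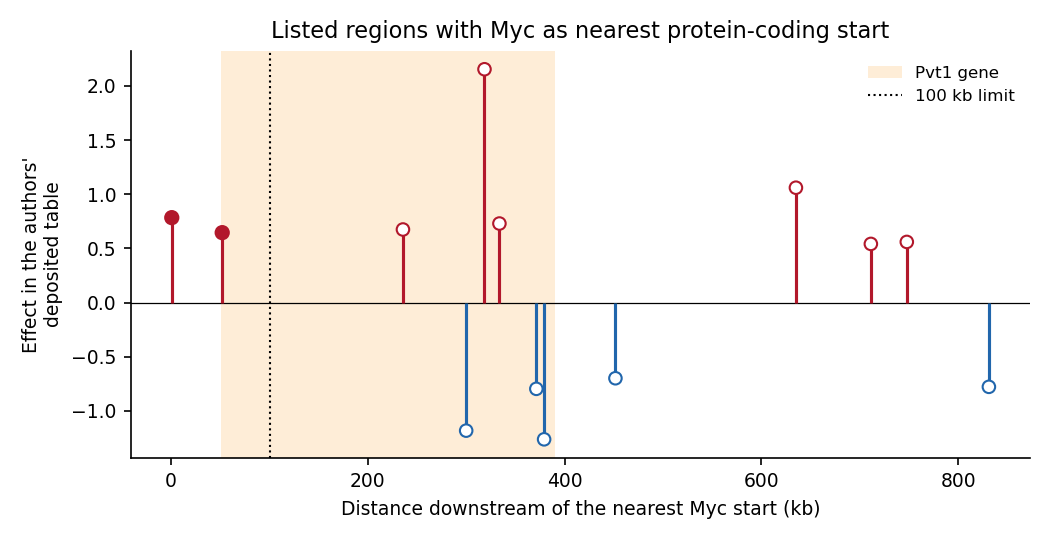
Effect in the authors' deposited table (y axis) of the 13 listed regions whose nearest protein-coding start is that of Myc, against distance downstream of the nearest Myc start in kb (x axis). Filled points are the 2 members within 100 kb and open points the 11 beyond it; red is positive, blue negative, and the shaded span is the Pvt1 gene. Both members are positive, whereas signs are mixed from 235603.5 bp onward.

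Mycl, the third activator, had 1 narrow negative region (chr4:122996226-122996350, 125 bp) that lay in an untranslated region of its transcripts over all 125 bp, centred 189 bp downstream of a start. The authors' deposited table gave it -0.74 (adjusted p = 0.00227). Mycn, best known from neural and embryonic tissue, had no listed region within 100 kb. The nearest listed region to its starts lay 503115.5 bp away and was closer to Fam49a, with an effect of 0.80 in the authors' deposited table. A gene with no listed region may have had tested regions that did not pass, which the table does not show.

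Max, the obligate partner of Myc, Mycn and Mycl, had 1 promoter region (chr12:76961801-76962750, 950 bp) centred 74.5 bp upstream of a start and spanning all 3 of its annotated starts. The authors' deposited table gave it 0.74 (adjusted p = 0.000304). The E-boxes of the sequence above were centred 47.5 and 322.5 bp upstream of the nearest start. Of all listed regions, 2.12% held 2 or more.

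The repressors had 7 regions, 6 of them positive. Mxd4 had a promoter region (chr5:34187601-34188325) centred 243 bp upstream, with an effect of 0.78 in the authors' deposited table (adjusted p = 0.000306). It held 1 E-box, 206.5 bp upstream of the nearest start, and 5 CCAAT elements. Mnt, which is known to be expressed in dividing and resting cells alike, had a promoter and an intronic region. The promoter region (chr11:74829926-74831000, 1075 bp) had an effect of 0.79 in the authors' deposited table (adjusted p = 6.47e-05). The intronic one (chr11:74831901-74832500), centred 1280.5 bp downstream, had 0.91 in the authors' deposited table (adjusted p = 8.53e-05). Each held 1 E-box, 116.5 bp upstream and 1384.5 bp downstream of the start.

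Mxd3 led the network, at 1.45 in the authors' deposited table (adjusted p = 1.09e-08), and 87.9% of all positive regions had a smaller effect. This region (chr13:55339326-55339850, 525 bp) was intergenic, 9830 bp upstream of the Mxd3 start, with 49.7% GC and 63.4% of its bases soft-masked as repeats. It had no other match in the genome at 80% identity over at least 50% of its width, and its E-box was not wholly soft-masked. No promoter region of Mxd3 was listed. A start of Lman2, a gene of the secretory pathway, that belongs to a transcript outside the basic protein-coding set lay nearer, at 9068 bp, so the assignment to Mxd3 depends on the set of starts used.

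Mxi1 had 2 positive regions near separate starts. The one centred 52 bp from a start (chr19:53329151-53329875, 725 bp) spanned 5 of the 8 annotated starts and had an effect of 0.70 in the authors' deposited table (adjusted p = 0.00532). The other (chr19:53314101-53314450, 350 bp), intronic and 1209.5 bp downstream of an earlier start, had 0.63 in the authors' deposited table (adjusted p = 0.000713), the smallest positive effect of the network. Neither held CACGTG. The intronic region is shown for its CRE (TGACGTCA, bound by CREB and ATF proteins), in capitals together with CCAAT. A CRE was found in 3.61% of all listed regions.
Mxi1, intron, chr19:53314285-53314384, plus strand: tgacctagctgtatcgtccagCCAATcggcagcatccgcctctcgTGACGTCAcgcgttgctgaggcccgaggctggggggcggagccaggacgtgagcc

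Mxd1, a repressor first known as Mad1, had the only negative repressor region (chr6:86669001-86669750, 750 bp), centred 214.5 bp upstream of its start. The authors' deposited table gave it -0.72 (adjusted p = 0.00257). The region held a CRE and 7 CCAAT elements, a number that 0.327% of listed regions reached, and no E-box. The 300 bp before the start, shown because they hold 5 of the 7 CCAAT elements in a negative region, were 75% GC. Of the 7 listed regions within 100 kb of the Mxd1 start, 6 were nearer to other genes, and those 6 were positive.
Mxd1, upstream, chr6:86669162-86669461, minus strand: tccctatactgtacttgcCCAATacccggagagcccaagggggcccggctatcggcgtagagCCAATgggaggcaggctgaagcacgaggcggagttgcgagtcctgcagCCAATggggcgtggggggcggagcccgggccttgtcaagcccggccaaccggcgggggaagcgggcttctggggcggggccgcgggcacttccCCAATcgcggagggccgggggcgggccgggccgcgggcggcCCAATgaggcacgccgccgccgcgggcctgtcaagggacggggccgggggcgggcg

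Mlx, which pairs with Mnt and Mxd proteins and with the glucose-sensing Mondo proteins, had 1 promoter region (chr11:101086926-101087550, 625 bp) centred 39 bp upstream. The authors' deposited table gave it 0.66 (adjusted p = 0.000796). The E-box lay 24.5 bp upstream of the nearest start and a CCAAT element 40 bp upstream. The neighbourhood was dense, with 10 listed regions within 100 kb of an Mlx start, 9 of them nearer to other genes.

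Over the table, negative regions were frequent at both ends of GC content. Among listed distal regions with 35 to 40% GC, 53.8% were negative. The share was 33.9% where GC was 40 to 45%, and 2.20% where it was 50 to 55%. No network region had under 45% GC, and the promoters reached the upper end. The 2 negative regions had 71.2% GC (Mycl) and 71.7% GC (Mxd1), and 80.7% of 814 listed promoter regions of 70 to under 75% GC were negative. Max, Mxd4 and the Mnt promoter had 63.3 to 64.9% GC, where 9.37% of 2347 promoter regions of 60 to under 65% were negative. The Mxi1 promoter region, positive at 69.5% GC, fell among 1745 promoter regions of 65 to under 70% of which 41.2% were negative. Only the Myc exon region, at 76.0% GC, was positive above 70%. Whether sign differs between network genes and other genes of equal GC content was not tested.

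**Figure D3:**
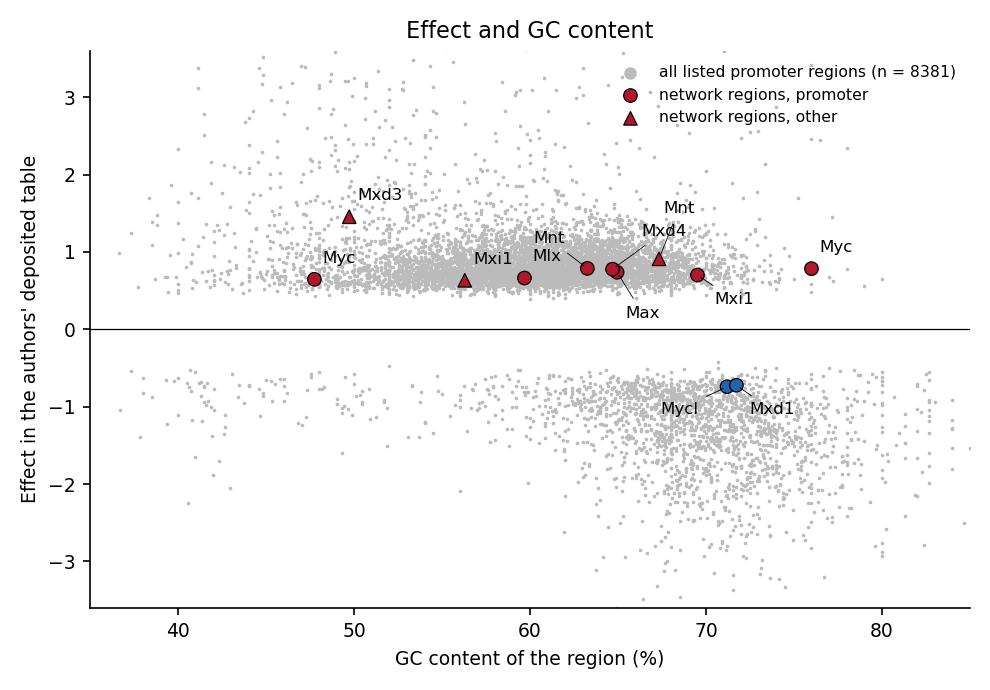
Effect in the authors' deposited table (y axis) against GC content in % (x axis) for the 12 network regions (large points: circles within 1000 bp of an annotated start, triangles elsewhere; red positive, blue negative) over 8381 listed promoter regions (grey). Effects beyond 3.6 in size and GC outside 35 to 85% are not drawn (108 regions); Mycl and Mxd1 sit among the negative regions of over 70% GC, and the Myc exon region is the network's point above them on the positive side.

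The canonical E-box was found in 6 of the 12 regions (50%), at 5 genes, and in 14% of all listed regions. Among listed regions within 10% of each member's width the mean share was 13.1%, and among listed promoter regions it was 18.3%. There were 7 sites in all. With 2 bases on either side, along the strand of the gene, they read GTCACGTGTT and TCCACGTGTC at Max, ATCACGTGAC at Mlx, GCCACGTGTG and ACCACGTGCA at Mnt, ACCACGTGCT at Mxd4 and ATCACGTGGT at Mxd3. No 2 of these were alike over all 10 bases. All 6 regions with an E-box were positive, with a median of 0.78 in the authors' deposited table, and the 6 without one held 4 positive regions, with a median of 0.67, and both negative ones. Over all listed regions the E-box was found in 14.3% of positive and 13% of negative regions, so in the table as a whole it hardly separated the signs. Regions without an E-box were also narrower, with a median width of 362.5 bp against 675 bp. Their median GC content was higher, at 70.4% against 64.0%, and both negative regions had over 70% GC. The parts of width and GC content in the difference were not tested. A match is a description of the letters and does not show that a factor binds there.

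The RefSeq promoter sequences (GRCm38.p6) run from 250 bases before to 50 after a start, whether or not a region is listed there. These sequences were searched in the same way. They held 11 windows of 9 of the 10 genes (none of Myc). Of these, 4 windows, of Max, Mlx, Mnt and Mxd4, held CACGTG, as did 7.15% of 32851 windows of all genes. The windows of Mycn, Mycl, Mxd1, Mxd3 and Mxi1 did not. The listed regions held E-boxes 47.5 (Max), 24.5 (Mlx), 116.5 (Mnt) and 206.5 bp (Mxd4) upstream of a start. The windows can hold these same sites, so they are not a separate count.

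Other consensus sequences were searched in the same way. GGGCGG, bound by SP and KLF factors, was found in 10 of the 12 regions, against 52.0% of all listed and 77.8% of listed promoter regions. CCAAT was found in 7 (48.4% of all listed and 55.4% of listed promoter regions). The E-box variants CACGCG and CATGTG were found in 5 regions each, against 21.8% and 21.4% of all listed. Among listed promoter regions the shares were 34.9% for CACGCG and 17.4% for CATGTG. No region held the consensus of ETS (searched as CCGGAAGT or as ACCGGAAG), STAT (searched as TTCNNNGAA), E2F (searched as GCGCGAAA or as GCGGGAAA), NRF1, YY1 or IRF, or the carbohydrate response element, which is a pair of E-boxes. Of these, STAT was the commonest elsewhere, in 16.9% of all listed regions. AP-1 was found in 1 region, the intronic one of Mxi1, against 22.2% of all listed and 13.3% of listed promoter regions. NF-kB was found in 1, the intronic one of Mnt, against 10.5%. The NFAT letters GGAAAA were found in 4 regions (33.7% of all listed), and the RUNX letters TGTGGT in 5 (30.8%). The E-box of E-proteins, CAGCTG, was found in 2 regions (29.9%), as was the TCF sequence CTTTGA (26.5%). AGATAA, read by GATA factors, was found in 1 region (12.9%).

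**Figure D4:**
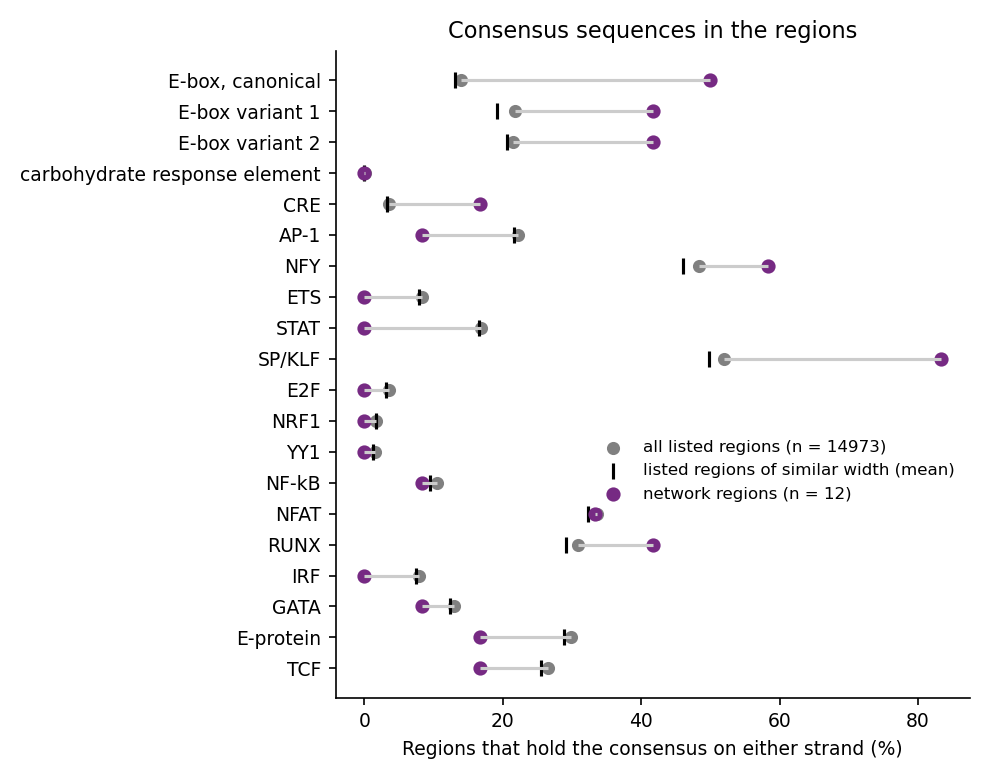
Share of regions that hold each of 20 consensus sequences on either strand, in % (x axis), for the 12 network regions (purple), all 14973 listed regions (grey) and listed regions within 10% of each member's width (black ticks, mean over members). E-box variants 1 and 2 are CACGCG and CATGTG. The canonical E-box stands at 50% against 14%.

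Genes that act with the network were described by lists, also chosen with earlier results of these data known. Their counts of genes with regions are therefore descriptions, and no excess was tested. Of its further partners, Mga, which pairs with Max, had 2 positive regions with effects of 1.03 at the promoter and 0.67 in the authors' deposited table, whereas Mlxip and Mlxipl, the Mondo partners of Mlx, had none. Of 18 cofactors, 16 had regions (43.0% of protein-coding genes had one), 14 positive and 7 negative (66.7% positive, against 80.7% over all listed regions). The highest was at Ep400, an ATPase of the Tip60 acetyltransferase complex, with 1.19 in the authors' deposited table, and the lowest at the promoter of Cdk9, the kinase of the elongation factor P-TEFb, with -2.04. Ccnt1, the cyclin partner of Cdk9, was positive at 0.98 in the authors' deposited table. All regions of Cdk9, Ncor1, Hdac2 and Zbtb17 were negative. The lowest of Cdk9, Ncor1 and Hdac2 had 73.9%, 69.1% and 71.7% GC, and the 2 of Zbtb17 had 60.1% and 60.8%. The other 12 cofactor genes with regions had positive ones only, among them Hdac1, a histone deacetylase like Hdac2 (0.77 in the authors' deposited table), and the Sin3 scaffolds, with 3 regions at Sin3a (0.51 to 0.73 in the authors' deposited table) and 1 at Sin3b (0.89).

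Of 9 genes that control the stability of Myc, 6 had regions, against 43.0% of protein-coding genes. All 10 of their regions were positive, against 80.7% of all listed regions, with a median of 0.99 in the authors' deposited table against 0.80 over all positive regions. The highest lay 70867 bp downstream of a start of Fbxw7, which encodes the F-box protein that marks Myc for degradation (1.34 in the authors' deposited table), and the lowest at Usp36, a nucleolar deubiquitinase (0.74). Pim1, a kinase induced by cytokines, had 2 downstream regions of 1.20 and 1.18 in the authors' deposited table. The GC content of the 10 stability regions ran from 47.2% to 69.4%, and its part in their signs was not tested. Of 29 known Myc targets, 23 had regions, against 43.0% of protein-coding genes. Of the 40 target regions 34 were positive and 6 negative (85% positive), a share near the 80.7% of all listed regions, and the positive median was 0.85 in the authors' deposited table. The lowest, -1.09 in the authors' deposited table, was at Ubtf, which encodes a ribosomal DNA transcription factor and whose 3 regions were all negative. CACGTG was found in 11 of the 40 target regions (27.5%), in 7 of the 21 cofactor regions (33.3%), in 2 of the 10 stability regions (20%) and in neither region of Mga, against 14% of all listed and 18.3% of listed promoter regions.

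**Figure D5:**
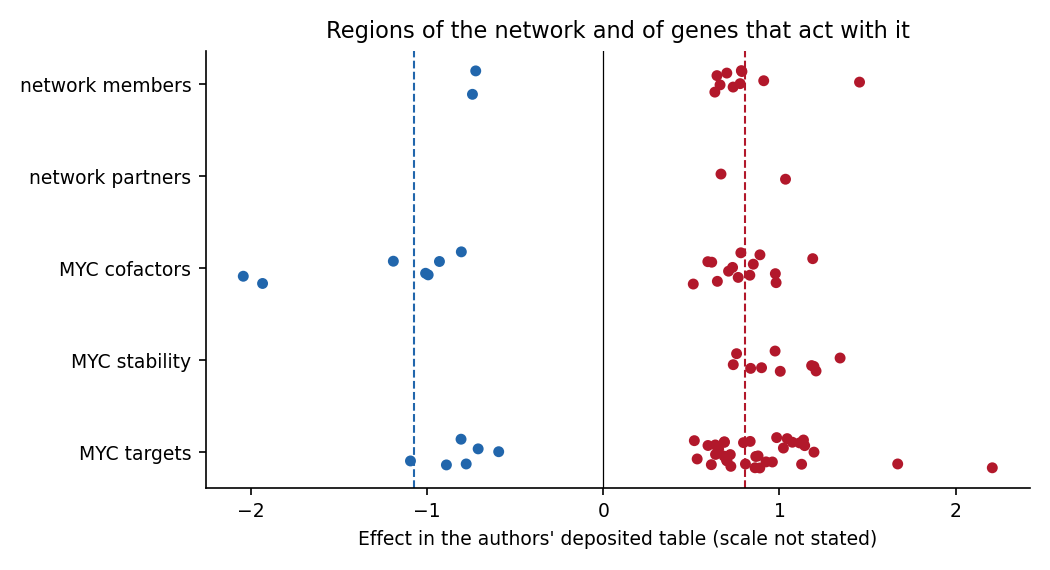
Effects in the authors' deposited table (x axis) of every listed region given to the network members (12 regions) and to 4 lists of genes that act with them (2, 21, 10 and 40 regions); vertical position within a row is arbitrary. Dashed lines are the medians of all listed positive (0.80) and negative (-1.07) regions. The row of stability genes has no negative point, and the cofactor row has 7.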

How the data were processed

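Genomic fragments were assayed by STARR-seq in 2 output libraries of activated Th1 cells. The authors deposited 1 table of regions derived from both libraries' alignments together, in mm10, per the file headers. The deposited score per region, called the effect here, was derived by the authors from both alignments, per the file headers, on a scale that no header or label states. The deposited p-value and adjusted p-value of each region (under 0.01 throughout) were computed by the authors from the same alignments, per the file headers, by a test that is not named there. No source used here names the aligner or caller, and the input library was not used here. Region starts count from 1, since end minus start plus 1 equals the width.

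Each region on chromosomes 1 to 19, X and Y was given to the nearest start of a basic protein-coding transcript of GENCODE mouse release 21 (21 regions on scaffolds were left out). Sequence was read from mm10 (GRCm38) with pysam 0.24.0. Copies were counted with minimap2 for the 300 bp around each centre and, at 80% identity, with blastn for whole regions. Consensus letters were searched on both strands. No test was run, since there is 1 group and no value per library. The number of tested regions was inferred from the p-values and adjusted p-values (82.2% of rows give it). All genes of the network with a region are named, and the lists name their highest and lowest regions with others chosen after their values were seen (the highest of the targets is not reported here). Members and lists were chosen with earlier results of these data known. Scripts were tested on simulated data. Alternatives were the distance limit, the adjusted p, the starts used, edge distance, merging and the searched window.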

Additional observations from a re-analysis of the deposited data

How the results depend on the processing

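With a limit of 50 kb or 20 kb the Myc region at the Pvt1 start dropped out and the median positive effect was 0.78. With a limit of 1 Mb there were 23 regions, 16 of them positive, with a median of 0.73. An adjusted p under 0.001 left 9 regions, all positive, with a median of 0.78, and lost those of Mxd1 and Mycl and the Mxi1 region nearest a start. At that cut 80.3% of all listed regions were positive. With the starts of all transcripts the Mxd3 region went to Lman2, and the median was 0.74. Distance from the region edge and merging of neighbours changed neither count nor median. The E-box was found in the central 200 bp of 3 regions, where 4.48% of all listed regions held it. Searched over whole regions, the mean share among listed regions of similar width was 13.1%. Within 1000 bp of a start alone, an alternative chosen after seeing the data, there were 1 positive and 0 negative regions for network partners, 12 and 6 for cofactors, 5 and 0 for stability genes, and 17 and 5 for targets. Of all listed regions within 1000 bp of an annotated start, 75.8% were positive. No paired analysis was possible because the table combines both libraries, which also leaves the spread between replicates and the depth unknown.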
